A study of Mus musculus with 4 samples.

Results

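In NK cells treated with IL-15, 490 of the 4890 listed XBP1s peaks (10.0%, exact 95% interval 9.19 to 10.9) were centred in the 5' untranslated region (5' UTR) or in an exon of a gene and were under 1000 bp wide. These peaks were chosen by the authors' own annotation of each peak centre, made with the HOMER annotator, and by a width limit of 1000 bp. They comprise 255 peaks in 5' UTRs, 191 in first exons and 44 in later exons. A peak is an interval of the genome where DNA recovered with an antibody was reported as enriched, and its width is its end minus its start plus 1. The annotation class, the width and the distance to the transcription start site (TSS) come from the same table as the choice itself, so they are given as a description. Shares carry exact 95% intervals by the Clopper-Pearson method, which cover counting error only, since neighbouring peaks and genes are not replicates.

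Chromatin immunoprecipitation and sequencing was done on natural killer (NK) cells, the innate lymphocytes that kill virus-infected or cancerous cells, purified from mouse spleen. All 4 libraries come from C57BL/6 cells of mice that the series describes as Il15TgXbp1f/f, treated with IL-15, a cytokine that sustains NK cells, at 50 ng/ml for 1 h. They form 2 XBP1s immunoprecipitations and 2 inputs, and every group therefore shares the Il15Tg and Xbp1 f/f alleles. The labels name no Cre, no promoter of the transgene, no age and no separate mice for the replicates. The deposited peaks are 1 combined list with no column of any single library, and every peak score is 0. No peak thus has a replicate error, library depths are unknown, and no test between samples was possible. A peak list holds no expression values, so it does not check the identity of the cells. Of the marker lists, 0 of 15 B and plasma cell genes, 3 of 15 T cell genes, 1 of 15 myeloid genes and 1 of 14 erythroid genes held a peak of any class, against 16 of 46 genes of NK receptors and lineage factors. Among all 21900 protein-coding genes, 3890 held one. With 14 or 15 genes per marker list, these counts are a description only.

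XBP1s is the spliced form of the transcription factor XBP1, made when the endoplasmic reticulum (ER) sensor IRE1 removes an intron from the Xbp1 messenger. It raises transcription of genes for protein import, folding, degradation and transport in the secretory pathway, and it is known to support the survival of NK cells. It binds elements with an ACGT core, among them the unfolded protein response element (UPRE), and, together with other factors, the ER stress response element (ERSE). The 5' UTR and the first exon begin at the TSS, so peak centres in them mostly lie just downstream of the promoter. The peak itself may reach back over the TSS.

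A choice of ACGT elements is shown as sequence, because they are letters that XBP1s and related factors are known to read. The choice takes every UPRE match, the CREs that lie under a listed peak, and the shorter core under the peaks of list genes. RefSeq promoter windows (GRCm38.p6, the assembly of mm10), reaching from 250 bases before to 50 after a start, could be matched to the authors' TSS for 361 of the 490 peaks. Each line gives 30 bases in the direction of the gene, with the match in capitals, and positions are counted with the first transcribed base as 0. Chromosome coordinates are those of the 30 bases shown, and the strand given with them is that of the gene. The UPRE was searched as TGACGTGG on both strands, and 3 windows held it.
Slc30a5: gccggggcggaTGACGTGGcccggtaacgt
Med31: tgacgacgcccTGACGTGGcgggaggacgt
Ptpn7: taaccccaccaCCACGTCAcccatgcctta
The element of Slc30a5, a zinc transporter of the early secretory pathway, lay within chr13:100833403-100833432 (minus strand), from base 6 to 13 in the first exon. A peak of 937 bp, among the widest of the first exon peaks, covered it. The element of Med31, a subunit of the Mediator complex, lay within chr11:72215619-72215648 (minus strand), from base -45 to -38, under a peak of 429 bp. HOMER placed the centre of that peak in the first exon of another gene, 4930563E22Rik. In Ptpn7, a tyrosine phosphatase of blood cells, the element reads on the strand opposite to the gene. It is within chr1:135133059-135133088 (plus strand), from base -239 to -232. It lay outside the 5' UTR peak of 247 bp, which starts 365 bp past the TSS, and under a separate promoter peak of the same gene, 544 bp wide.

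The cyclic AMP response element (CRE), searched as TGACGTCA, is bound by the CREB and ATF factors and carries the same ACGT core. It reads the same on both strands. It occurred in 12 of the matched windows, and in 6 of them it lay under the peak itself.
Clasp2: gcgcgtcgctcTGACGTCAcgcgcgcgctg
Dguok: tgacggccctcTGACGTCAaaggtgcgctg
Ociad1: cagcgctgtccTGACGTCAtttcccgtcaa
Phf8: gccccgccccaTGACGTCAcgcaagagccg
Tmem39a: cgacgcagagcTGACGTCAtcgctgtgcgc
Wdr5b: cctgttttgtgTGACGTCAtctgttgcttg
The sites are at chr9:113741431-113741460 (plus strand) for Clasp2, a microtubule end-binding protein, and at chr6:83506955-83506984 (minus) for Dguok, the mitochondrial deoxyguanosine kinase. They are at chr5:73292766-73292795 (plus) for Ociad1 and at chrX:151520607-151520636 (plus) for Phf8, a histone demethylase. The others are at chr16:38562808-38562837 (plus) for Tmem39a and at chr16:36041182-36041211 (plus) for Wdr5b. All 6 of these peaks covered the TSS, and their widths ran from 328 bp at Ociad1 to 909 bp at Clasp2. In Dguok the element spans the TSS, from base -4 to 3, and in Tmem39a and Wdr5b it is transcribed, from base 5 to 12 and from base 3 to 10.

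In Dusp1, a phosphatase that switches off MAP kinases, and in Pdzd8, the CRE lay outside the first exon peak but under a second, promoter peak of the same gene.
Dusp1: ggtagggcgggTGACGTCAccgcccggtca
Pdzd8: cgcgcacgctcTGACGTCAcgcgccgctcg
These sites are at chr17:26508597-26508626 and chr19:59345870-59345899, both on the minus strand. The first exon peak of Dusp1 was 388 bp wide and started 228 bp past the TSS, and its promoter peak was 254 bp wide. The corresponding widths at Pdzd8 were 192 and 268 bp.

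The core ACGTGG, on either strand, occurred in 42 windows and lay under the peak in 22. It is contained in the UPRE and in part overlaps the E-box CACGTG. At genes of the lists described further on, it lay under the peak in Srprb, the beta subunit of the receptor for signal recognition particle, and in Bax, which opens the mitochondrial outer membrane in apoptosis.
Srprb: tggagcctagagCCACGTaactttggcggc
Bax: atgttgcggggcacCCACGTgagggccgca
The Srprb site is within chr9:103202084-103202113, from base -36 to -31, and the Bax site within chr7:45466849-45466878, from base 34 to 39. Both genes are on the minus strand, and in both the core reads as ACGTGG on the strand opposite to the gene. A match is a run of letters and not evidence of binding at that base.

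As shares of windows, these matches came out differently with the background chosen. The windows end 50 bases past the TSS, and no centre of the chosen peaks was closer to it than 101 bp. Every 5' UTR and first exon centre therefore lay outside its window, and sequence there was not searched. Of the 361 matched peaks, 255 reached into their window. A missing match thus holds for the part searched and not for the whole peak. Within the part of each window that the peak covers (255 peaks, median 86 bp), ACGTGG occurred in 8.63% (5.49 to 12.8), against 3.13% in the same stretch of all 32851 windows. The ETS family site CCGGAAG occurred in 17.3% (12.8 to 22.5) against 4.18%, the CRE in 2.35% (0.868 to 5.05) against 0.761%, and the E-box in 7.06% (4.24 to 10.9) against 2.74%. The UPRE occurred in 2 of the 255 stretches, 0.784% (0.0951 to 2.80), against 0.259%. The CCAAT box, bound by NF-Y, occurred in 10.6% (7.09 to 15.0) against 14%, a value inside the interval. The whole ERSE, which is CCAAT followed after 9 bases by CCACG, occurred in 0 of the 255 stretches, which allows a share of up to 1.44%, and in 0.0308% of the same stretches of all windows. Its part CCACG alone occurred in 26.3% (21 to 32.1) against 13.5%.

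Many of these windows are rich in the dinucleotide CpG, as are many promoters of widely expressed genes. The median ratio of observed to expected CpG was 0.770 over the 361 windows, 0.863 over the 1904 matched windows of promoter peaks and 0.384 over all windows. A ratio of 0.6 or more was found in 78.7% (74.1 to 82.8), 91.1% (89.7 to 92.3) and 35.8% (35.3 to 36.3) of them. Among the classes, the share was 78.3% (71.7 to 84.0) for 5' UTR peaks, 84.1% (77.2 to 89.7) for first exon peaks and 51.9% (31.9 to 71.3) for the 27 matched later exon peaks, whose interval is wide. The median GC content was 58.7%, 63.0% and 52.7% for the same 3 sets of windows in the order first given.

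The comparison was therefore repeated among windows with a CpG ratio of 0.6 or more, an alternative chosen after the shares above had been seen. Over whole windows, the 5' UTR and exon peaks then held ACGTGG in 13.0% (9.34 to 17.5) and CCGGAAG in 18.7% (14.3 to 23.7), against 12.9% and 18.7% of all CpG-rich windows. The CRE came to 3.87% (1.95 to 6.82) against 3.65%, and the E-box to 11.3% (7.84 to 15.5) against 11.3%. CCACG came to 53.5% (47.5 to 59.4) against 54.1%, and the UPRE, in 1 window, to 0.352% (0.00891 to 1.95) against 1.11%. Promoter peaks, with windows of the same kind, held ACGTGG in 18% (16.2 to 19.9), CCGGAAG in 31.8% (29.6 to 34.1) and the CRE in 6.81% (5.66 to 8.09). Over all matched windows, promoter peaks covered a median of 238 bp in 1768 windows, against 86 bp in 255 for 5' UTR and exon peaks. The windows therefore hold unlike parts of these peaks. In the stretches under the peak of CpG-rich windows (213 peaks), CCGGAAG stood at 17.4% (12.5 to 23.1) against 9.23%, and ACGTGG at 8.45% (5.09 to 13.0) against 5.08%. The CRE stood at 2.35% (0.766 to 5.39) against 1.62%, and the UPRE, left in 1 stretch, at 0.469% (0.0119 to 2.59) against 0.447%. CCACG stood at 29.1% (23.1 to 35.7) against 23.6%, and the E-box at 7.04% (3.99 to 11.3) against 4.65%. In this comparison the interval of CCGGAAG and, by a narrow margin, that of ACGTGG lay above the background. The intervals of the CRE, the UPRE, CCACG and the E-box included it.

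**Figure D1:**
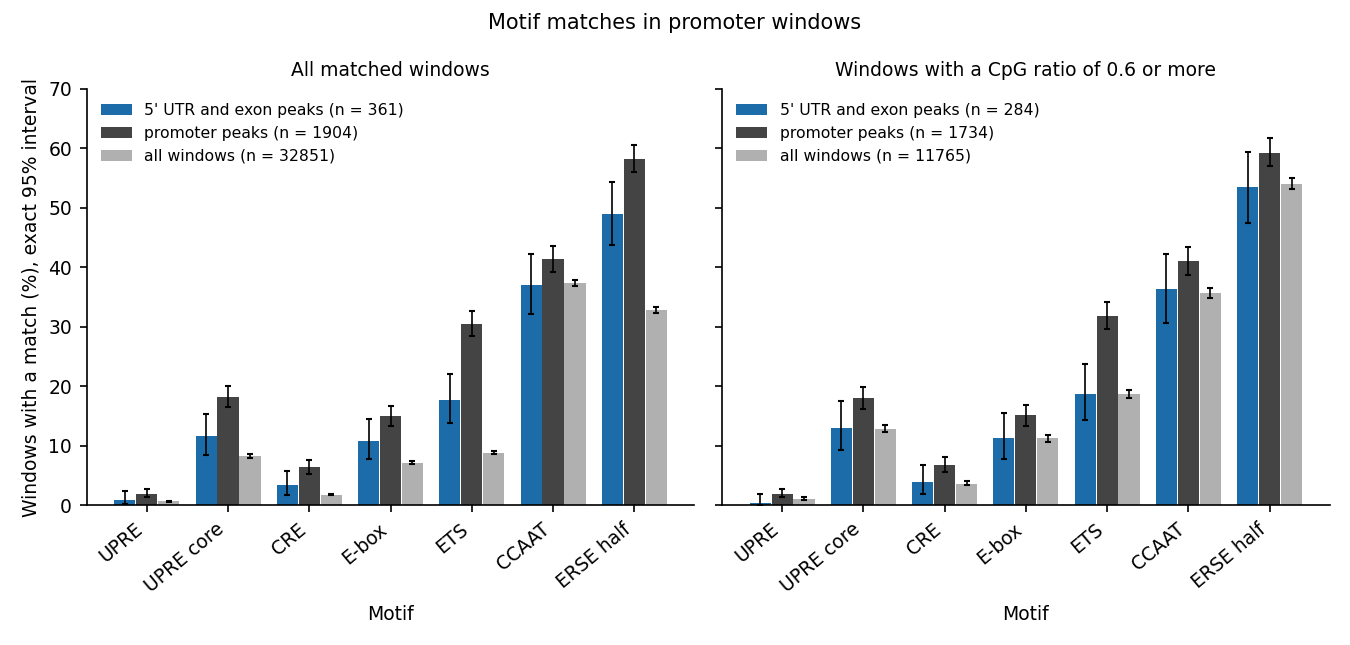
Share of promoter windows with a match to each motif (%, with exact 95% intervals) for 5' UTR and exon peaks, promoter peaks and all windows, over all matched windows (left) and over windows with a CpG ratio of 0.6 or more (right). On the left the blue bar of the ETS site, 17.7%, stands between all windows (8.86%) and promoter peaks (30.5%), and on the right it is level with all windows at 18.7%.

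Most of the 490 peaks sat close behind a TSS. The median signed distance from the nearest TSS to the centre, with downstream positive, was 153 bp for 5' UTR peaks (interquartile range 122.5 to 216), 164 bp for first exon peaks (130.5 to 234.5) and 1651.5 bp for later exon peaks (458.2 to 4508.2). Upstream of the nearest TSS lay 4 of the 44 later exon centres and 1 of the 5' UTR centres, and without regard to direction the later exon median was 2593 bp. No centre was closer than 101 bp, because the annotator gives the promoter class to centres nearer the TSS. Centres at 101 to 150 bp made up 201 of the 490 (41.0%), and those at 151 to 200 bp another 107 (21.8%). Within 1000 bp lay 98.4% of the 5' UTR peaks, 98.4% of the first exon peaks and 14 of the 44 later exon peaks (31.8%). By exon number, 438 of the 490 (89.4%, 86.3 to 92.0) were in exon 1 of their transcript, and 8 of the 255 5' UTR peaks were in exon 2 or later. The nearest gene was protein-coding for 486 of them.

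Although the centre was downstream, the interval often reached back over the TSS. It covered the TSS in 135 of the 255 5' UTR peaks (52.9%, 46.6 to 59.2), in 95 of the 191 first exon peaks (49.7%, 42.4 to 57.0) and in 1 of the 44 later exon peaks (2.27%, 0.0575 to 12). Among the 2375 promoter peaks under the same width limit the share was 75.8% (74.1 to 77.5). In the remaining 5' UTR peaks, 119 began past the TSS, as did 96 of the first exon peaks. Edges are computed from the authors' distance to the centre and hold to within 1 bp.

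Peak widths were much alike in 5' UTRs and first exons. The median was 362 bp in 5' UTRs (95% interval of the median 329 to 395), 348 bp in first exons (312 to 386) and 296 bp in later exons (270 to 333), against 385 bp in promoters (374 to 396) and 324 bp in introns (312 to 335). In all, 51 of the 490 peaks were under 200 bp and 13 under 100 bp. The way the common intervals were made was not given in the sources used here, and a width is not a measure of signal. The widest 5' UTR peak was 981 bp, at Mcph1, a gene of chromosome condensation, followed by 958 bp nearest to Amigo2, 947 bp at Rrp1b, a nucleolar protein, 932 bp at Ssu72, a phosphatase of RNA polymerase II, and 912 bp at Trim27. The widest first exon peaks were at Cnpy3, an ER chaperone of Toll-like receptors (990 bp), Jund, a member of the AP-1 factors (970 bp), Mrps28 of the mitochondrial ribosome (960 bp), Nolc1 of the nucleolus (955 bp) and Mogs, the glucosidase that begins N-glycan trimming in the ER (938 bp). The peak at Jund is centred 1740 bp past the TSS in a gene of a single exon, whereas those at Cnpy3 and Mogs cover the TSS.

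The narrowest intervals were 14 bp at B4galnt1, 16 bp at Tkt, a transketolase of the pentose phosphate pathway, 27 bp at Ppp4c, 40 bp at F8a and 57 bp at Ttc39c. At the width limit, the 4 peaks just inside were Fbxl22 (965 bp), Jund (970 bp), Mcph1 (981 bp) and Cnpy3 (990 bp). The 4 just outside were Prr36 (1003 bp), Gmppa and Akr1a1 (1009 bp each) and Cdkn1b (1030 bp).

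**Figure D2:**
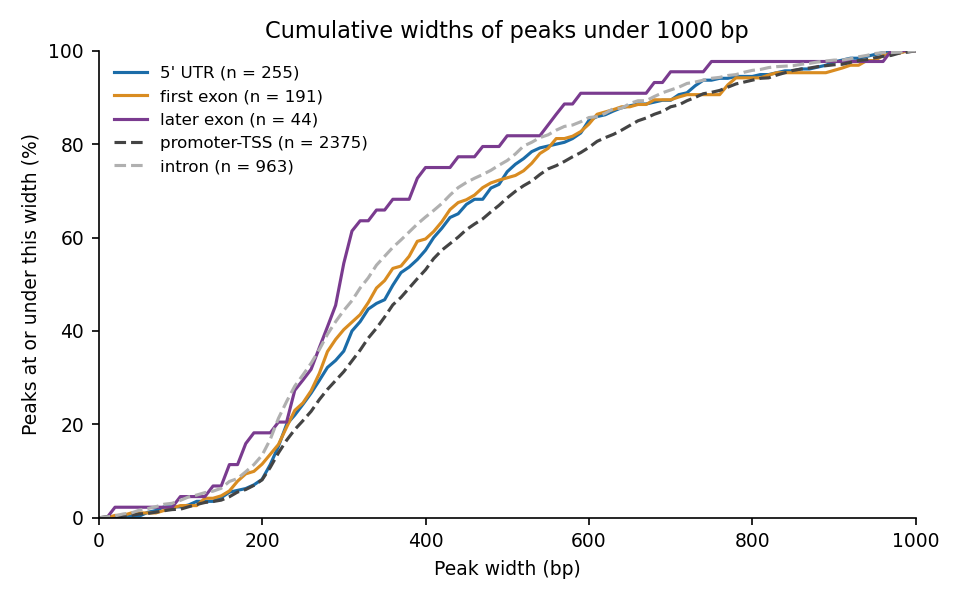
Cumulative share of peaks (%) at or under each width (bp) for peaks under 1000 bp in 5' UTRs, first exons, later exons, promoters and introns. The lines of 5' UTR and first exon peaks run close together and cross, with medians of 362 and 348 bp, and the later exon line, over 44 peaks, has its median at 296 bp.

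The second question was which genes hold these peaks. Of 21900 protein-coding genes, 479 (2.19%) were nearest to a 5' UTR or exon peak, and of the 3890 with a listed peak of any class the share was 12.3%. In the 4 lists of ER and secretory genes together, 11 of 162 genes held such a peak (6.79%, 3.44 to 11.8), which is 8.27% (4.20 to 14.3) of the 133 that held a peak of any class. The first share is above that of all genes, and the interval of the second includes the 12.3%. For import and glycosylation, folding, degradation and ER to Golgi transport, the second share was 9.09%, 7.69%, 9.09% and 7.32%. Each of their intervals includes the 12.3%. The count depends on the width limit, and with none it rose from 11 to 19 genes, while the share of all genes rose to 2.33%. No list test was run, and the lists were chosen with results of these data known.

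Genes of import into the ER and N-glycosylation gave 4 of 51 (7.84%, 2.18 to 18.9). Ssr2, a subunit of the translocon-associated complex, held a peak of 714 bp (chr3:88579467-88580180) from 141 bp before to 572 bp past the TSS. Srprb held 531 bp (chr9:103201696-103202226), and Sec62, a translocation factor, 456 bp (chr3:30793094-30793549). The Sec62 interval starts 218 bp past the TSS, so it does not reach it, whereas that of Srprb begins 161 bp before it. Dpm3, which stabilises the synthase of dolichol-phosphate mannose, held 159 bp, starting 43 bp past the TSS.

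Genes of chaperoning and oxidative folding gave 2 of 31 (6.45%, 0.791 to 21.4), both in 5' UTRs and both covering the TSS. These were Uggt1, the glucosyltransferase that marks misfolded glycoproteins (493 bp, chr1:36243913-36244405), and Dnajc10, a disulfide reductase of the ER (413 bp, chr2:80315379-80315791). ER-associated degradation gave 2 of 27 (7.41%, 0.910 to 24.3). Among them was Ubxn4, with 598 bp in the 5' UTR (chr1:128244022-128244619) that cover the TSS.

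Transport between the ER and the Golgi gave 3 of 53 (5.66%, 1.18 to 15.7). Sec24a, a cargo subunit of the COPII coat, held 738 bp (chr11:51756040-51756777), starting 58 bp past the TSS. Sec23ip, a partner of the coat subunit Sec23, held 526 bp, and Preb, the exchange factor that starts coat assembly, 494 bp. Both of the latter cover the TSS. None of the 21 sensors and transcription factors of the unfolded protein response held a peak of this kind (0%, up to 16.1%), although 13 of them held a peak of some class. The width limit left out the first exon peak of Xbp1 itself (2296 bp) and the 5' UTR peak of Atf4 (1733 bp), so the count without it is 2.

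The list of PIM kinases, survival and apoptosis, with genes for and against cell death, gave 4 of 34 (11.8%, 3.30 to 27.5). That is 23.5% (6.81 to 49.9) of the 17 with any peak, an interval that includes the 12.3% of all such genes. Bcl2, which blocks the mitochondrial path of apoptosis, held 366 bp in the 5' UTR (chr1:106713986-106714351), from 60 bp before to 305 bp past the TSS. Birc3, an inhibitor of apoptosis and ubiquitin ligase, held 549 bp in the 5' UTR (chr9:7872621-7873169), starting 1 bp past the TSS. Bax, which acts against Bcl2, held 304 bp in the 5' UTR (chr7:45466640-45466943), covering the TSS. Pim2, a kinase that promotes survival and growth, held 231 bp in the first exon (chrX:7878322-7878552), from 16 to 246 bp past the TSS. The peaks of Bcl2 and Bax thus reach back over the TSS, and those of Birc3 and Pim2 lie wholly in the transcribed part.

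Among NK cell genes, the effector list gave 2 of 30 (6.67%, 0.818 to 22.1), which is 15.4% (1.92 to 45.4) of the 13 with any peak. They were Il12rb1, a subunit of the IL-12 receptor, with 418 bp covering the TSS, and Nkg7, a protein of cytotoxic granules, with 356 bp starting 95 bp past it. Receptors and lineage factors gave 2 of 46 (4.35%, 0.531 to 14.8), which is 12.5% (1.55 to 38.3) of the 16 with any peak. Prdm1, which encodes the repressor Blimp-1, held 112 bp in the 5' UTR. Klrd1, which encodes the receptor chain CD94, held 190 bp in exon 4 of 6, centred 3616 bp past the TSS. Of 41 genes of IL-15 and JAK-STAT signalling, 1 held such a peak (2.44%, 0.0617 to 12.9), which is 7.14% (0.181 to 33.9) of the 14 with any peak. It was the feedback inhibitor Socs3, with 379 bp in the 5' UTR. For the NK and IL-15 lists, every interval includes the matching background, 2.19% of all genes or 12.3% of those with any peak.

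**Figure D3:**
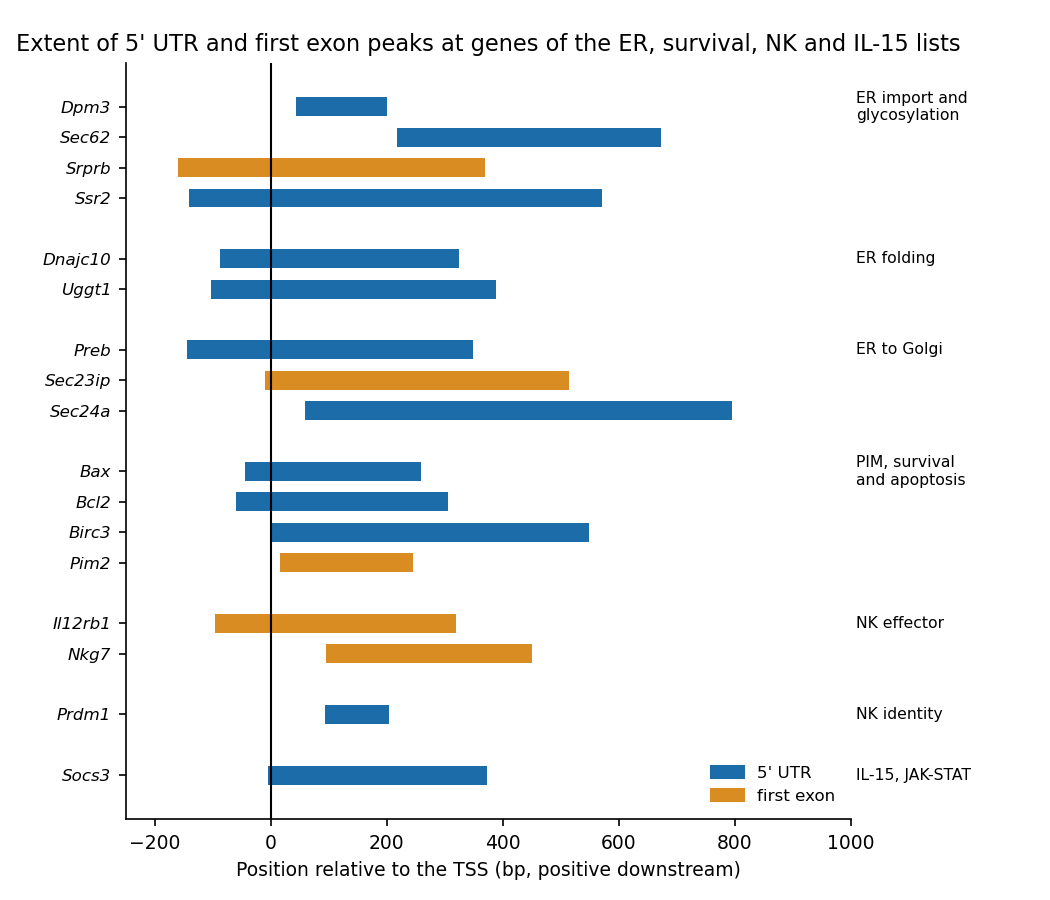
Extent of the 5' UTR (blue) and first exon (orange) peaks at genes of the ER import, ER folding, ER to Golgi, survival and apoptosis, NK and IL-15 lists, in bp from the TSS, with positive values downstream. The interval at Sec62 begins 218 bp past the TSS and that of Srprb 161 bp before it; the Klrd1 peak, in a later exon 3616 bp away, is not drawn.

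Lists of general cell functions were counted in the same way, beside the same 2.19% of all protein-coding genes. Splicing factors gave 5 of 46 (10.9%, 3.62 to 23.6), namely Srsf11 (778 bp), Srsf1 (721 bp), Srsf6 (640 bp), Prpf8 (250 bp) and Clk2 (240 bp, whose centre is annotated to a transcript of Gm45927). Proteasome subunits gave 3 of 38 (7.89%, 1.66 to 21.4), Psmd7 (352 bp), Psmc3 (295 bp) and Psmd12 (241 bp), all covering the TSS. Translation factors gave 3 of 47 (6.38%, 1.34 to 17.5), Eif6 (735 bp), Eif4e2 (478 bp) and Eif5a (475 bp), all in the 5' UTR and covering the TSS. Cytosolic ribosomal proteins gave 4 of 77 (5.19%, 1.43 to 12.8), Rpl21 (525 bp), Rps3a1 (476 bp), Rps29 (431 bp, in exon 2) and Rps24 (207 bp). Every interval of these shares overlaps that of the 4 ER lists together. Of splicing genes with any peak the share was 13.5% (4.54 to 28.8), and of proteasome genes 15.8% (3.38 to 39.6). For translation factors it was 11.5% (2.45 to 30.2), and for ribosomal proteins 9.09% (2.53 to 21.7). All 4 intervals include the 12.3% of all genes with any peak. With no width limit, the ER lists rose from 11 to 19 genes, the splicing and ribosomal lists stayed at 5 and 4, and the proteasome and translation lists each rose from 3 to 4.

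Oxidative phosphorylation gave 1 of 68 (1.47%, 0.0372 to 7.92), the succinate dehydrogenase subunit Sdhb with 387 bp in the 5' UTR. Zinc finger genes with Zfp symbols gave 13 of 367 (3.54%, 1.90 to 5.98), with the widest at Zfp568 (730 bp), Zfp865 (621 bp) and Zfp574 (602 bp). That is 14.9% (8.20 to 24.2) of the 87 that held any peak, beside 12.3% of all such genes. None of 67 replication-dependent histone genes held a 5' UTR or exon peak (0%, up to 5.36%), and only 4 held a peak of any class. None of the B and plasma cell, T cell, myeloid or erythroid markers held a 5' UTR or exon peak. The intervals for these markers reach 21.8% or more. From oxidative phosphorylation to the markers, the intervals of all these lists include the 2.19% of all genes. Those of the survival list, the splicing list and the 4 ER lists together begin above it, at 3.30%, 3.62% and 3.44%.

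**Figure D4:**
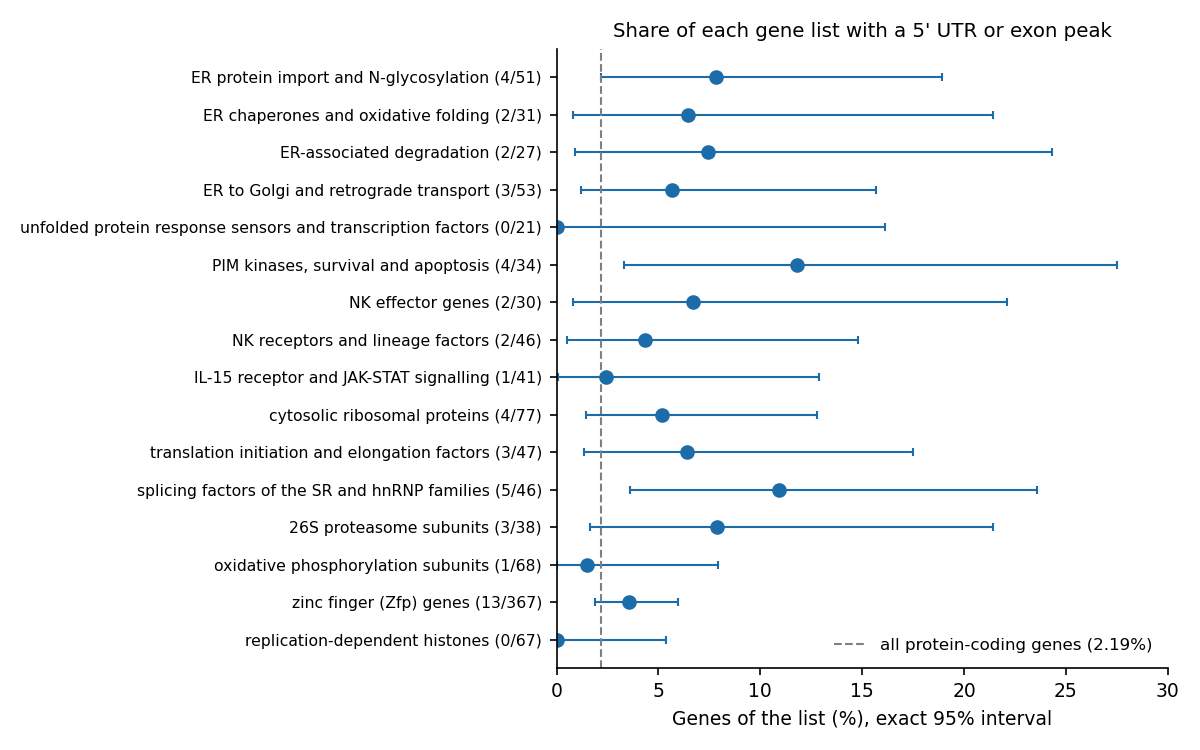
Share of the genes of each list (%) that are nearest to a 5' UTR or exon peak, with exact 95% intervals; counts stand in brackets and the dashed line is the 2.19% of all protein-coding genes. The points for the 4 ER lists lie between 5.66% and 7.84%, survival and apoptosis genes stand at 11.8% and splicing factors at 10.9%, with wide intervals throughout. The 12.3% of genes with a peak of any class is not drawn.

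The 44 later exon peaks differed in position from the other classes, as their annotation requires. Exon 2 held 19 of them and exon 3 or later 25, and 10 were in the last exon of their transcript. The widest was at Fbxl22 (965 bp, in the last of 2 exons, centred 2621 bp past the TSS), followed by Klhl35 (744 bp), Ftl1, the ferritin light chain (695 bp), Angptl6 (678 bp) and Tbc1d10c (583 bp in exon 9). Of the 44, 14 were more than 5000 bp from the nearest TSS. The farthest were Mbd2, a reader of methylated DNA (exon 6, 54310 bp), Sh3d19 (exon 5, 19699 bp) and Ppcdc, an enzyme of coenzyme A synthesis (exon 4, 18522 bp).

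The gene with the nearest TSS can differ from the gene whose exon holds the peak. It can do so inside a long gene or where genes start close together. This difference was found for 14 of the 489 peaks with a matched transcript (2.86%, 1.57 to 4.76). By class it was 3 of 255 5' UTR peaks, 1 of 190 first exon peaks and 10 of 44 later exon peaks (22.7%, 11.5 to 37.8). The peak assigned to the microRNA gene Mir6946 lies in exon 4 of Sec24c, a cargo subunit of the COPII coat, 232 bp wide. That assigned to Mir6769b lies in exon 42 of Unc13a (562 bp), which also held a peak of 156 bp in exon 3 under its own name. One of the peaks assigned to Klhl35 lies in exon 11 of Gdpd5, 17056 bp upstream of the Klhl35 TSS, and the peak assigned to Ucp2, a mitochondrial carrier, lies in exon 8 of Dnajb13. The peak assigned to Dctpp1 lies in exon 3 of Zfp771. The 5' UTR peak assigned to Amigo2 lies in exon 4 of Pced1b, 113947 bp upstream of the Amigo2 TSS. Assigned by transcript, the ER to Golgi list would hold 4 genes in place of 3.

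The 490 peaks belong to 484 nearest genes, and 414 of these (85.5%, 82.1 to 88.5) had no other listed peak. A promoter peak was also listed for 28 (5.79%) and an intron peak for 30 (6.20%). For promoter peaks under the same limit, 2029 of 2326 genes (87.2%, 85.8 to 88.6) had no other peak. Another listed peak lay within 1000 bp of 42 of the 490 (8.57%, 6.25 to 11.4), against 11.6% (10.3 to 12.9) of promoter peaks. A pair of 5' UTR or exon peaks was held by 6 genes, counted by nearest TSS. Trim27 held one of 912 bp over the TSS and one of 78 bp starting 811 bp past it. Tsc22d2 held 236 bp in the 5' UTR and 478 bp farther along the first exon. Mfsd10 held 301 bp in exon 2 and 297 bp in exon 8, and Prss16, a protease, 270 bp in exon 5 and 298 bp in exon 8. Arhgap9 held 60 bp in the 5' UTR and 174 bp in exon 2, and the Klhl35 pair is described above.

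On every chromosome that held a peak, other than chromosome 18, the interval of the share of the 490 included the share of the other listed peaks. Chromosome 7 held 44 (8.98%, 6.60 to 11.9, against 7.91% of the other peaks) and chromosome 11 held 43 (8.78%, 6.42 to 11.6, against 9.68%). Chromosome 18 held 20 (4.08%, 2.51 to 6.23), against 2.50% of the other peaks, a value just under the interval. No correction was made for reading each chromosome in turn, so this difference is a description only. The X chromosome held 9 (1.84%, 0.843 to 3.46, against 1.43%).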

How the data were processed

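Per the labels' protocols, chromatin was precipitated with an XBP1s antibody and sequenced beside input. Tools listed in the submitters' processing notes are MACS2 2.2.7.1, HOMER (4.11 and 4.11.1), Bowtie2 2.4.5, FastQC 0.11.9 and Trim Galore 0.6.7; the builds listed are mm10 and GRCm38. Per the file headers, the deposited table is the output of the HOMER annotator on 1 set of intervals (mm10). Its score column, which the authors deposited, is 0 for all peaks. The calling and combining of intervals was not given in the sources used here.

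From this table, class, exon number, width and distance were read per peak, and promoter windows, genes and symbols were taken from RefSeq GRCm38.p6 (start sites within 10 bp). Counts, medians and exact 95% intervals were computed in Python 3.11.15 with pandas 2.3.3, NumPy 2.4.6 and SciPy 1.17.1, and drawn with matplotlib 3.10.9. The motif search and intervals were tested on simulated data. The 20 gene lists matched in all but 2 of their entries.

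The peaks and lists were chosen with earlier results of these data known. Genes were named by rule: Pim2, Xbp1 and Bcl2, list members by width, the widest, narrowest and farthest peaks, genes with 2 peaks, and sites shown as sequence. Narrower list members and peaks assigned to another gene were named after their values were seen. One gene of the lists is not reported here. The planned CpG label could not be used, since the detailed annotation repeats the class for all 490 peaks, and the CpG ratio replaced it.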

Additional observations from a re-analysis of the deposited data

How the results depend on the processing

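Of 149 values recomputed under other settings, 134 stayed within 1.5 times the count, or inside the 95% interval of the value. Some of the 134 could not move. Leaving out noncoding transcripts changed nothing, since all 490 peaks were annotated to coding transcripts. The histone and marker lists stayed at 0 under every setting. The 15 values that moved were as follows. With no width limit, the folding list rose from 2 to 4 genes, the ER to Golgi list from 3 to 7, the 4 ER lists together from 11 to 19 and the unfolded protein response list from 0 to 2. With peaks of at least 200 bp only, the median width was 375 bp and the list of NK receptors and lineage factors fell to 0. The share of genes with a 5' UTR or exon peak was 12.3% among genes with any peak, and the share of peaks in a transcript of another gene was 21.6% among those over 1000 bp from the nearest TSS. Using the shorter core in place of the UPRE gave 8.63%. Over whole windows in place of the stretch under the peak, CCACG came to 49.0% and CCAAT to 37.1%. With a CpG ratio of 0.6 or more as well, the values were 13.0% for ACGTGG, 53.5% for CCACG, 11.3% for the E-box and 36.3% for CCAAT. Whole windows are longer than the stretches, and a dropped width limit adds peaks. No paired analysis was possible because the list has no column per library, and for the same reason no replicate could be left out.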

Other observations

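The width limit left out 32 peaks of the same classes, 12 in 5' UTRs, 16 in first exons and 4 in later exons, which is 6.13% (4.23 to 8.54) of the 522, against 7.62% (6.63 to 8.72) of promoter peaks. With them included, the share of all protein-coding genes with a 5' UTR or exon peak rose from 2.19% to 2.33%. The share of ER list genes among all 328 listed peaks at or over the limit is not given here. The next count is therefore a description only. Of the genes of the 32 left-out peaks, 8 belong to the 4 ER lists. They are Calr, the chaperone calreticulin (1902 bp), Lman2, a cargo receptor (1432 bp), Arf4, a small GTPase of coat assembly (1371 bp), Selenos of ER-associated degradation (1317 bp), Cog3 of the Golgi tethering complex (1284 bp), Sdf2l1 (1274 bp), Magt1, a subunit of oligosaccharyltransferase (1135 bp), and Tmed3 (1037 bp). The widest were Xbp1 (2296 bp, first exon), Slc33a1, the acetyl-CoA transporter of the ER (2184 bp, 5' UTR), Calr, Eif3a, a translation initiation subunit (1823 bp), and Atf4, a transcription factor of the stress response (1733 bp, 5' UTR). These peaks were grouped by width, so their widths are a description only.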
